A study of Mus musculus with 6 samples.

Results

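The tumour suppressor p53, encoded in the mouse by Trp53, and 9 genes known for their response to it were described in luminal epithelial cells of the mouse mammary gland, in libraries labelled Ocln knockout and wild type. The genes were taken by symbol from the authors' deposited table of 16701 genes, and all 10 were listed. They are Trp53 itself, its inhibitor Mdm2, and the target genes Zmat3, Aen, Phlda3, Trp53inp1, Sesn1, Sesn2, Gdf15 and Eda2r. Polyadenylated RNA was sequenced from 3 libraries of Ocln knockout mice and 3 libraries of wild-type control mice, all at 7 weeks of age, per the labels. Ocln encodes occludin, a membrane protein of the tight junctions that seal epithelial cells to each other, and the series concerns its part, with the endosome protein FIP5, in building the mitotic spindle. The sources used here do not say how the knockout was made, on which strain, or whether each library is a separate mouse. The p-values therefore reflect the scatter of these 6 libraries, which may in part be technical.

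As background, p53 is a transcription factor that is held low in unstressed cells by Mdm2, a ubiquitin ligase that sends it to the proteasome. DNA damage, a prolonged or failed mitosis and other stresses free p53 from Mdm2, mostly without a change in Trp53 RNA. p53 then binds DNA and raises genes that halt the cell cycle, repair DNA, restrain growth signalling or start apoptosis, and it raises Mdm2, which closes a feedback loop. The RNA of its targets is therefore commonly read as a gauge of p53 activity, while the RNA of Trp53 is not. In mammary epithelium p53 is best known as a tumour suppressor.

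The sequence that p53 reads is a pair of short units, each made of 3 purines, a C, 2 letters that are each A or T, a G and 3 pyrimidines. This unit of 10 letters reads the same way on both strands, so 1 search covers both. It was looked for in RefSeq promoter windows of GRCm38.p6, 250 bases before to 50 after an annotated start, of which 8 of the 10 genes had at least one. Trp53inp1 and Zmat3 had none in the table used. Windows of 4 of these 8 genes held the unit, against 9.55 percent of the 27025 genes with a window. None of the 8 held a pair of units with a gap of at most 13 letters, which 0.074 percent of all genes with a window did. Cdkn1a, which encodes the cell cycle inhibitor p21 and is no member of the set, is shown beside them because its window held such a pair. The stretches show where single units lay in these windows, with the unit in capitals and 40 bases on either side. Each stretch is written 5′ to 3′ on the gene's own strand. In the Cdkn1a stretch the 10 letters right after GAACATGTCT, tgacatgttc, differ from the unit only in their first letter and so were not marked. Which letters p53 binds in these windows was not tested. A match is only a run of letters, and p53 also binds in introns and farther away.
Trp53, chr11:69580244-69580333, plus strand: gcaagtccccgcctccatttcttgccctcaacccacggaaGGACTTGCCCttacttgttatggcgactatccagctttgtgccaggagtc
Mdm2, chr10:117710895-117710984, minus strand: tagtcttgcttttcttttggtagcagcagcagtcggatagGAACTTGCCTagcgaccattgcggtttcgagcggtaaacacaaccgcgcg
Sesn1, chr10:41887226-41887315, plus strand: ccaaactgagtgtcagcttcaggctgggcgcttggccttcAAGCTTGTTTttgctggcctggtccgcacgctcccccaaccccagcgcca
Aen, chr7:78895897-78895986, plus strand: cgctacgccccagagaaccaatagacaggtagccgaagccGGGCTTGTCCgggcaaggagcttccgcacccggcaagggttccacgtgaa
Cdkn1a, chr17:29090866-29090955, plus strand: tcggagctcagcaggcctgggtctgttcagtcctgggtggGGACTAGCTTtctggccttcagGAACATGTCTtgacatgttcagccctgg

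None of the 10 genes passed the authors' test between Ocln knockout and control cells, and their fold changes pointed both ways. In the authors' deposited table, DESeq2 put 0 of the 10 at an adjusted p under 0.05, against 1.08 percent of all listed genes, and 0 had an unadjusted p under 0.05, against 9.07 percent of all listed genes. The authors' own call of Up or Down was given to 0 of the 10 and to 2.79 percent of all listed genes in the authors' deposited table. The rule behind that call is not stated in the sources used here, and it may include a limit on the fold change. The log2 fold change, knockout over control, was positive for 5 and negative for 5, with a median of -0.01 for the 10 and -0.01 for all listed genes. The lowest adjusted p of the 10 in the authors' deposited table was 0.725, that of Eda2r. A p above the threshold does not show that a level was the same in both genotypes, so the 95 percent interval of each fold change, a normal interval from the SE, is given below as a percentage of the control level. In bulk RNA, fewer cells with a transcript and less of it per cell cannot be told apart. The deposited values are 1 mean level and 1 fold change per gene, and no values per library were used here.

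Ocln, the gene targeted in the knockout, was lower in the knockout libraries but not absent, at -1.15 ± 0.16 on the log2 scale (SE, adjusted p = 4.36e-09 by DESeq2) in the authors' deposited table. This left 44.9 percent of the control level, with 35.9 and 56.2 percent as the bounds of the interval. Which part of the gene was deleted is not stated in the sources used here, the table does not show which exons the remaining reads came from, and the protein was not measured in these data. Ocln averaged 2048 normalized counts, near the mean levels of Trp53 and Mdm2, so a change of its size would have stood well outside the error of those genes.

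**Figure D1:**
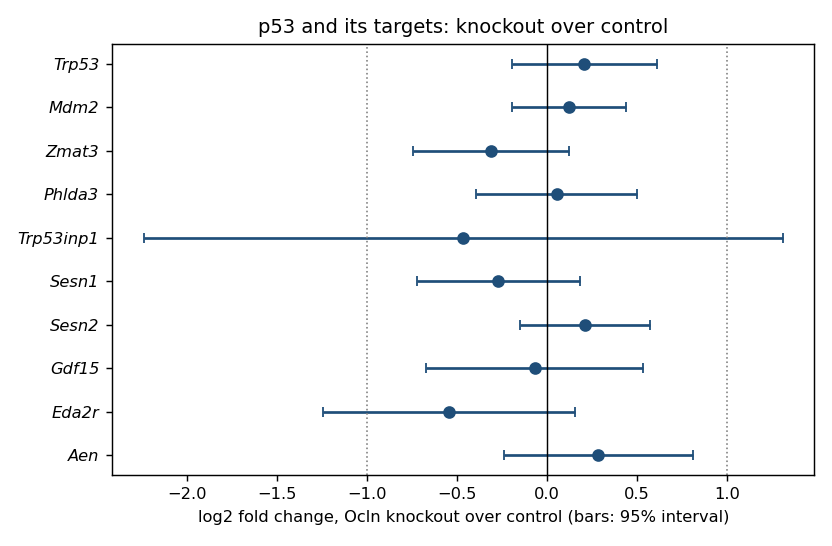
Log2 fold change of each gene in Ocln knockout over control cells (x axis), with bars for the 95 percent interval from the SE and dotted lines at a 2-fold change. All 10 bars cross 0, and only those of Trp53inp1 and Eda2r reach a dotted line.

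Trp53 and its inhibitor Mdm2, the core of the pathway, were among the most precisely measured. Trp53, on chromosome 11 from 69580359 to 69591873 (GRCm38), averaged 2019 normalized counts over all libraries, with a log2 fold change of 0.21 ± 0.21 (SE, adjusted p = 0.87 by DESeq2) in the authors' deposited table. Its level in the knockout was 115.5 percent of the control level, with an interval of 87.3 to 152.8 percent. Mdm2, the ubiquitin ligase that p53 itself raises, averaged 1682 normalized counts, with a log2 fold change of 0.12 ± 0.16 (adjusted p = 0.925) in the authors' deposited table. That is 108.9 percent of the control level, with an interval of 87.3 to 135.8 percent. For the feedback gene of the pathway, a rise or a fall of 1.5-fold therefore lay outside the interval.

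The targets that act on RNA and DNA were listed on opposite sides of 0. Zmat3, which encodes an RNA-binding zinc finger protein that regulates splicing, had a log2 fold change of -0.31 ± 0.22 (adjusted p = 0.76) in the authors' deposited table, or 80.6 percent of the control level with an interval of 59.7 to 108.8 percent. Aen, which encodes a nuclease that promotes apoptosis, stood at 0.29 ± 0.27 (adjusted p = 0.859) in the authors' deposited table, the highest value of the 10. Its level was 121.9 percent of the control level, with an interval of 84.6 to 175.5 percent. Both intervals hold 100 percent.

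The targets that restrain growth signalling were likewise split. Sesn1 and Sesn2 encode sestrins, stress proteins that inhibit the growth kinase complex mTORC1. In the authors' deposited table Sesn1 had a log2 fold change of -0.27 ± 0.23 (adjusted p = 0.835), an interval of 60.5 to 113.7 percent of the control level. Sesn2 had 0.21 ± 0.18 (adjusted p = 0.842) in the authors' deposited table, an interval of 90.0 to 148.6 percent. The signs of the sestrins differ while their intervals overlap, and the difference between these genes was not tested. Phlda3, whose product competes with the survival kinase Akt for membrane lipids, had a log2 fold change of 0.05 ± 0.23 (adjusted p = 0.983) in the authors' deposited table, an interval of 76.1 to 141.6 percent. Mdm2, Phlda3 and Sesn2 were the 3 genes whose intervals lay within a 1.5-fold change either way.

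The secreted and cell surface products had the lowest levels. Gdf15, which encodes a stress hormone of the TGF-beta superfamily, averaged 70.9 normalized counts, with a log2 fold change of -0.07 ± 0.31 (adjusted p = 0.984), per the authors' deposited table. Its interval ran from 62.8 to 144.7 percent of the control level. Eda2r, which encodes a receptor of the TNF receptor superfamily for ectodysplasin A2 and lies on the X chromosome from 97333840 to 97377216 (GRCm38), averaged 92.9 normalized counts and had the most negative value, -0.54 ± 0.36 (unadjusted DESeq2 p = 0.128), per the authors' deposited table. Its level was 68.6 percent of the control level and its interval 42.2 to 111.5 percent, so a 2-fold lower level was not outside its interval. Eda, the gene of its ligand, was listed at -0.47 ± 0.37 (adjusted p = 0.804) in the authors' deposited table, and Eda was chosen for mention after its value was seen.

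Trp53inp1, which encodes a stress-induced nuclear protein that cooperates with p53 and acts in autophagy, stood apart from the other 9 by its error rather than its change. Its log2 fold change in the authors' deposited table was -0.47 ± 0.91 (SE, adjusted p = 0.956), although it averaged 18149 normalized counts and ranked 130 by level among all listed genes. Its level was 72.4 percent of the control level, and the interval of 21.2 to 247.7 percent holds both a 2-fold fall and a 2-fold rise. The SE was 4.96 times the median SE of the 329 genes nearest to it in mean level (up to 200 on either side), where that median was 0.18. The other 9 genes had SEs of 0.16 to 0.36 and from 0.89 to 1.36 times the median of their own neighbours in level.

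**Figure D2:**
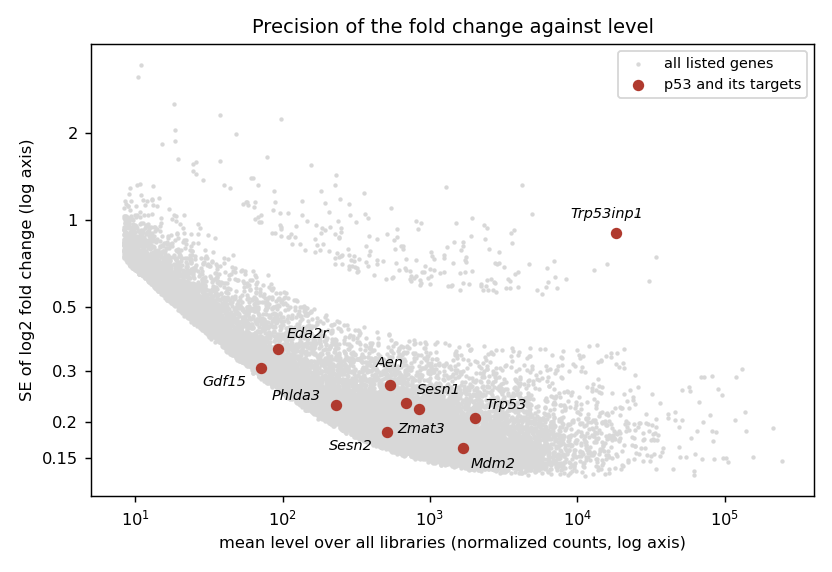
SE of the log2 fold change (y axis, log2 units on a log axis) against the mean level over all libraries (x axis, normalized counts, log axis), with all listed genes in grey and the 10 genes in red. Trp53inp1 sits in a thin upper band of genes, above a gap that separates it from the main cloud, and the other 9 lie inside the main cloud.

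The SEs that DESeq2 gave to well-expressed genes fell into separate bands, and Trp53inp1 was in the upper one. Whether the gap between bands reflects the genes or the way their SEs were estimated was not tested. Of 7649 genes that averaged 500 normalized counts or more, 115 had an SE above 3 times the median of their neighbours in level, 0 had a ratio between 2.5 and 3, and 37 had a ratio between 2 and 2.5. These limits were set after the values were seen. Among the 115 genes in the upper band, 0 passed at an adjusted p of 0.05 and 14 had an unadjusted DESeq2 p under 0.05, per the authors' deposited table. The shares over all listed genes were 1.08 and 9.07 percent. Trp53inp1 was the only one of the 7 p53 genes at this level to lie in the upper band, and the only one of 52 p53 pathway, relative and ATF4 genes described here at this level. Below it, Psat1 of the ATF4 list, which averaged 318.6 normalized counts, had an SE of 0.68 in the authors' deposited table, 3.16 times the median of its neighbours in level. Among the 295 genes with a mean level within 2-fold of that of Trp53inp1, only Gpx3, which encodes a secreted glutathione peroxidase, had a higher SE (0.63 ± 1.04) in the authors' deposited table. Next in that range were Fcgbp (1.81 ± 0.74) and the fibrinogen chain genes Fgb (-0.71 ± 0.70) and Fgg (-0.48 ± 0.67), again from the authors' deposited table. These genes were named after their values were seen, and whether the same libraries account for their errors was not tested, since no values per library were used.

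Levels between genes can be compared only per length, and were taken as normalized counts per kb of annotated exon (union of GENCODE M21 exons). Trp53inp1 had the highest level per kb, 2803 normalized counts per kb, followed by Trp53 at 499.1 and Mdm2 at 330.9 normalized counts per kb. Sesn1 had 172.7, Phlda3 148.2 and Sesn2 146.6 normalized counts per kb, all above the median of 108.4 over the listed genes with a length. Aen at 92.8, Zmat3 at 73.1, Gdf15 at 38.3 and Eda2r at 15.8 normalized counts per kb were below that median. The level of Trp53inp1 per kb was thus 177.7 times that of Eda2r. The spread of these levels over libraries was not used here, so neighbours in this order, such as Phlda3 and Sesn2, cannot be told apart. For Trp53inp1, with an SE 4.96 times the median at like level, the mean may also rest unevenly on the libraries, which was not tested.

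**Figure D3:**
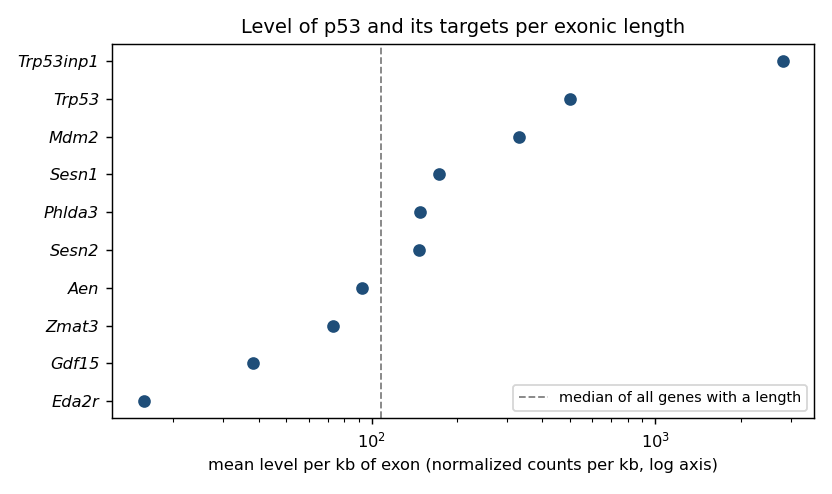
Mean level of each gene over all libraries per kb of annotated exon (x axis, normalized counts per kb, log axis), in order, with a dashed line at the median of all genes with a length. Trp53inp1 stands highest at 2803 normalized counts per kb and Eda2r lowest at 15.8.

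Other known p53 targets were described from a list of 33 genes of arrest, apoptosis, repair and metabolism, all of them listed. By the authors' DESeq2 test 0 of the 33 passed, and the unadjusted p was under 0.05 for 1 higher and 1 lower gene, against 5.23 percent of all listed genes higher and 3.83 percent lower. Their median log2 fold change was -0.07, with 12 positive and 21 negative values. That is 36.4 percent positive, against 48.8 percent of all listed genes, and the difference was not tested. The gene lower at an unadjusted p was Psrc1, which encodes a microtubule-binding protein of the mitotic spindle (-0.85 ± 0.32, adjusted p = 0.27, unadjusted p = 0.00861 in the authors' deposited table). Epha2, an ephrin receptor gene, was the one higher at an unadjusted p (0.69 ± 0.22, adjusted p = 0.112) in the authors' deposited table. The members with the highest mean levels in the authors' deposited table were the antiproliferative gene Btg2 (-0.29 ± 0.20), the polo-like kinase gene Plk2 (-0.06 ± 0.17) and Sfn (0.37 ± 0.22), which encodes 14-3-3 sigma, and none of these passed.

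Further classic targets of this list, chosen after their values were seen, lay on both sides of 0. Their balance is not that of the whole list, with its 12 positive and 21 negative values. Cdkn1a averaged 3107 normalized counts, with a log2 fold change of 0.05 ± 0.27 (adjusted p = 0.987) in the authors' deposited table, and its interval was 71.5 to 149.8 percent of the control level. Ccng1, which encodes cyclin G1, had -0.40 ± 0.21 (adjusted p = 0.595) in the authors' deposited table, an interval of 56.6 to 101.5 percent. The apoptosis genes Bax (-0.08 ± 0.21) and Pmaip1, which encodes Noxa (0.55 ± 0.29), were likewise above the threshold in the authors' deposited table.

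Regulators of p53 were described from a list of 22 genes whose products act on p53 or on its control. Of these, 0 passed the authors' DESeq2 test, and with an unadjusted p under 0.05 there were 1 higher and 0 lower genes. These are 1 of 22 genes, against 5.23 percent of all listed genes higher and 3.83 percent lower, so the count is near the background. The values were positive for 15 and negative for 7, with a median of 0.14, while 48.8 percent of all listed genes were positive. Over all genes with a length the DESeq2 score, fold change over SE, rose with exon length (Spearman correlation 0.17). The part of this trend in the signs of the 22 genes was not tested. Trp53bp2, which encodes ASPP2, a p53-binding protein that favours apoptosis and also sits at apical junctions, had a log2 fold change of 0.68 ± 0.21 (adjusted p = 0.0713, unadjusted p = 0.000985) in the authors' deposited table. Its interval of 121.0 to 211.6 percent of the control level takes no account of how many genes were tested. It also had the highest mean level of the list, followed in the authors' deposited table by Mdm4 (0.19 ± 0.16), the partner of Mdm2 in holding p53 down, and the deubiquitinase gene Usp7 (0.29 ± 0.17).

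**Figure D4:**
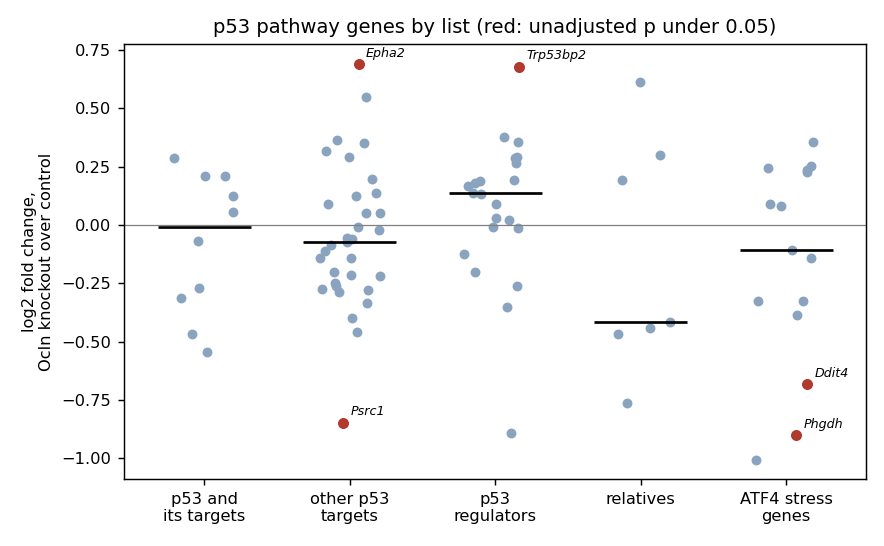
Log2 fold change in Ocln knockout over control cells (y axis) of every listed gene of 5 lists, with a black line at each list's median and genes with an unadjusted p under 0.05 in red. The 10 p53 genes spread around a median of -0.01, and 5 genes of the other lists are red, none of which has an adjusted p under 0.05.

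Relatives of the 10 genes were taken from a list of 8, of which 7 were listed. By DESeq2 0 of the 7 passed and 0 had an unadjusted p under 0.05, against 1.08 and 9.07 percent of all listed genes. The median log2 fold change was -0.41 and the median SE 0.37, with 3 positive and 4 negative values. Mean levels went down to 9.64 normalized counts. The highest mean levels were those of Trp53inp2, the relative of Trp53inp1 (-0.44 ± 0.27), Sesn3, the third sestrin gene (0.19 ± 0.20), and Phlda1 (0.30 ± 0.27) in the authors' deposited table. Trp53inp2 had a value close to that of Trp53inp1 with an SE of 0.27, against 0.91 for Trp53inp1. Trp63, which encodes the p53 family member of basal epithelial cells and was chosen after its value was seen, was listed at -0.76 ± 0.40 (unadjusted DESeq2 p = 0.0563) and at only 52.4 normalized counts in the authors' deposited table.

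Gdf15 and Sesn2 are also known to be raised by ATF4, the transcription factor of the integrated stress response, so 15 genes of that response were set beside them. By the authors' DESeq2 test 0 of the 15 passed, and with an unadjusted p under 0.05 there were 0 higher and 2 lower genes of the 15, against 5.23 percent of all listed genes higher and 3.83 percent lower. Their median log2 fold change was -0.11, with 7 positive and 8 negative values. The 2 lower ones in the authors' deposited table were Phgdh, the first enzyme gene of serine synthesis (-0.90 ± 0.28, adjusted p = 0.0828), and Ddit4, an mTORC1 inhibitor gene that p53 can also raise (-0.68 ± 0.32, adjusted p = 0.49). Atf3 (-0.11 ± 0.19), Atf4 (0.25 ± 0.15) and Ppp1r15a (0.23 ± 0.16) had the highest mean levels and adjusted p-values above the threshold in the authors' deposited table.

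Markers of the labelled cell type were high, among them the luminal keratin genes Krt18 (-0.10 ± 0.15) and Krt8 (-0.06 ± 0.14) in the authors' deposited table, and the 4 luminal markers were listed at 20196 to 58513 normalized counts per kb. Krt19, another luminal keratin gene, had -0.36 ± 0.18 (DESeq2 adjusted p = 0.502, unadjusted p = 0.0374) in the authors' deposited table. Of 30 markers of other cell types 24 were listed, at 6.08 to 411.2 normalized counts per kb, and 17 of the 24 had a positive and 7 a negative log2 fold change. Positive values were held by 5 of 5 macrophage, 3 of 3 B cell, 1 of 1 T cell and 4 of 5 fibroblast markers. The same held for 3 of 4 endothelial, 1 of 5 basal and 0 of 1 adipocyte markers. The 5 counted as macrophage markers include Ptprc, a gene of immune cells in general. By the authors' DESeq2 test 2 of the 24 passed, against 1.08 percent of all listed genes, and both were lower. The 2 were Oxtr of basal cells (-1.55 ± 0.38, DESeq2 adjusted p = 0.00733) and Dcn of fibroblasts (-1.36 ± 0.35, adjusted p = 0.0134) in the authors' deposited table. The markers Cd3e, Cd3d, Nkg7, Cd79a, Adipoq and Plin1 were not among the listed genes. Other markers among the 2 with the highest mean level of their cell type in the authors' deposited table were Acta2 (-0.16 ± 0.28) of basal cells, Col3a1 (0.25 ± 0.34) of fibroblasts, Pecam1 (0.04 ± 0.21) and Cdh5 (0.02 ± 0.23) of endothelium, and Lyz2 (0.97 ± 0.29, adjusted p = 0.0665) and Ptprc (1.19 ± 0.76) of immune cells. Trbc2 (0.22 ± 0.47), Ighm (1.58 ± 1.15), Ms4a1 (1.54 ± 1.60) and Fabp4 (-0.14 ± 0.28), for T cells, B cells and adipocytes, were above the threshold in the authors' deposited table. The part of such cells in the values of the p53 genes was not tested.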

How the data were processed

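RNA-seq of luminal mammary cells from 3 Ocln knockout and 3 control libraries was analysed from 1 comparison. The submitters' processing notes name DESeq2 and the build mm10. No aligner, counter, annotation or formula was given in the sources used here. As for units, per the file headers the deposited table holds a mean level (a signal in normalized counts), a log2 fold change with its SE in log2 units, the Wald score, p-values before and after adjustment, and the authors' call. The direction was taken from the name of the table. The deposited score equalled fold change over SE to within 2.58e-07, and the deposited adjusted p-values a Benjamini-Hochberg adjustment to within 0.512 percent.

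No new test per gene was made. Intervals of 95 percent are normal intervals from the SE, exon lengths came from GENCODE M21 (16250 genes matched), and promoter windows from RefSeq. Depth per library is unknown. The lowest mean level listed was 8.35. Python 3.11.15, pandas 2.3.3 and scipy 1.17.1 were used, and the adjustment was tested on simulated data. The members and lists were chosen with earlier results of these data known. Genes named are the members, Ocln, genes of each list with an adjusted or unadjusted p under 0.05, the 3 of each list with the highest mean level and 2 markers per cell type. Others are marked as chosen after their values were seen.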

Additional observations from a re-analysis of the deposited data

How the results depend on the processing

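The count of called p53 genes stayed at 0 of 10 under each of 6 alternatives, which were an adjusted p of 0.01, an unadjusted p of 0.05, the authors' own calls, a floor of 50 on the mean level, scores divided by the root of their inflation factor of 1.18, and scores less the trend with exon length in 20 bins. The lowest unadjusted DESeq2 p of the 10 was 0.128, so only the authors' calls and the length setting could have given another count. Over the 5 lists, 27 of 30 recomputed counts stayed at 0. The adjusted p of 0.01 and the division by inflation could not raise a count in any list. At an unadjusted p under 0.05 the counts were 2 of 33 other p53 targets, 1 of 22 p53 regulators and 2 of 15 ATF4 genes. These are 6.1, 4.5 and 13.3 percent, against 9.07 percent of all listed genes. The adjusted p of Trp53bp2 ranged from 0.0586 with the length trend taken out to 0.175 with scores divided by their inflation. That of the macrophage marker Lyz2 ranged from 0.0388 to 0.166 under the same 2 settings of the DESeq2 scores. Centring the fold changes of the 10 genes on all genes, on genes of like level or on genes of like length kept the sign in 30 of 30 values and moved none by more than 0.07. The order of the smallest changes did depend on it, since Phlda3 stood at 0.06 to 0.11 and Gdf15 at -0.06 to -0.002 under these centrings. No paired analysis was possible because the deposited table has no values per library, and for the same reason no library could be left out. Precision is limited by the SE, most for Trp53inp1.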
